A study of Mus musculus with 24 samples.

Results

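The insulin receptor and the first steps of its signal were followed through 8 genes, out of 52352 genes measured in mouse frontal cortex, of which 18239 were abundant enough to test. The 8 genes were the receptors Insr, Igf1r and Igf2r, the docking proteins Irs1 and Irs2, the PI3K regulatory subunit Pik3r1, and the transcription factors Foxo1 and Foxo3. All 8 passed the filter on low counts. Insr was chosen by its read counts, which were lower in mice with the transgene, and the other 7 genes were added for their place in its pathway. The transgene values of Insr are therefore a description with no test, and the tests below concern the other genes and the other comparisons.

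The study crossed mice that carry 1 inactive copy of the progranulin gene (Grn+/-) with hTDP transgenic mice, which express human TDP-43 in addition to their own. Poly-A RNA from frontal cortex of the offspring was sequenced. There were 24 libraries, each from a separate mouse and 6 per genotype (3 male and 3 female). The transgene was carried by Grn+/-:hTDP+ and Grn+/+:hTDP+ mice, and the mice without it were Grn+/-:hTDP- and Grn+/+:hTDP-. Mice were 8.19 to 10.79 months old, and the transgenic ones all 9.44 or 10.07 months. Ages that no transgenic mouse had were those of all Grn+/-:hTDP- mice except replicate 3, and of replicate 1 of Grn+/+:hTDP-. The promoter and line of the transgene, and the cells it is active in, are not stated in the labels.

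Insulin and the insulin-like growth factors bind receptor tyrosine kinases on the cell surface, which phosphorylate docking proteins of the IRS family. These recruit phosphoinositide 3-kinase, whose lipid product activates the kinase AKT, and AKT keeps FOXO transcription factors out of the nucleus. In the brain the pathway is known for its part in neuronal growth, synaptic plasticity and the control of energy balance.

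Insr is read as 2 mature forms that differ by a short exon, and the pair is shown here because the transcripts described below differ in it. The reads give no ratio of the 2 forms. The lines give the junction with and without this exon in the RNA's sense, with the exon in capitals and 24 bases on each side in lower case.
Insr-203, with the exon: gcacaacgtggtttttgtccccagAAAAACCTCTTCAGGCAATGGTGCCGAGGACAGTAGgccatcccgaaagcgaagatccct
Insr-201, without it: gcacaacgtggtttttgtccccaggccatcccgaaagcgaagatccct
The exon holds 36 bases, or 12 codons, at chr8:3181702-3181737 on the minus strand (GENCODE M21, GRCm38), between exons 10 and 11 of Insr-201. The form without it is the A form, which also binds IGF2 tightly, and the form with it is the B form, known from liver, muscle and fat.

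The libraries held 61445842 to 100859149 estimated reads. Grn averaged 26.3 CPM (counts scaled to the library's total) in Grn+/- mice and 49.4 CPM in Grn+/+ mice, and human TARDBP had 4328 to 8162 reads in each hTDP+ library, against 0 to 2 reads in hTDP- libraries. Markers of cortical neurons were abundant in every library, with 5 excitatory markers summing to 4968 to 6259 CPM. The library of Grn+/+:hTDP+ replicate 2 stood apart, with 40188 transcripts above 0 against 65994 to 69846 in the others. The extraction text describes both a directional and a non-directional library, so reads from overlapping genes on opposite strands could not be told apart. Insr overlaps the antisense gene Gm16180 and Igf2r overlaps Airn, the antisense RNA of its imprinted locus.

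Per length of message, Pik3r1 was the most abundant of the 8 genes and Irs1 the least. In TPM, the share of a library's transcripts after division by length, Pik3r1 averaged 59.8 ± 4.98, Foxo3 30.5 ± 3.05, Irs2 28.4 ± 4.80 and Igf1r 12.4 ± 0.997 (SD, n = 24). Insr averaged 10.1 ± 1.23 TPM, Igf2r 7.78 ± 0.681, Foxo1 4.70 ± 0.583 and Irs1 2.83 ± 0.314. The ranges of Foxo3 and Irs2 overlapped, as did those of Igf1r and Insr, of Insr and Igf2r, and narrowly of Foxo1 and Irs1. Pik3r1, with 48.8 TPM in its lowest library, lay above every library of the other 7 genes. Estimated reads per library went from 709 to 1308 for Irs1 and from 9019 to 16302 for Pik3r1, so the counting error of Irs1 is the largest of the 8.

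**Figure D1:**
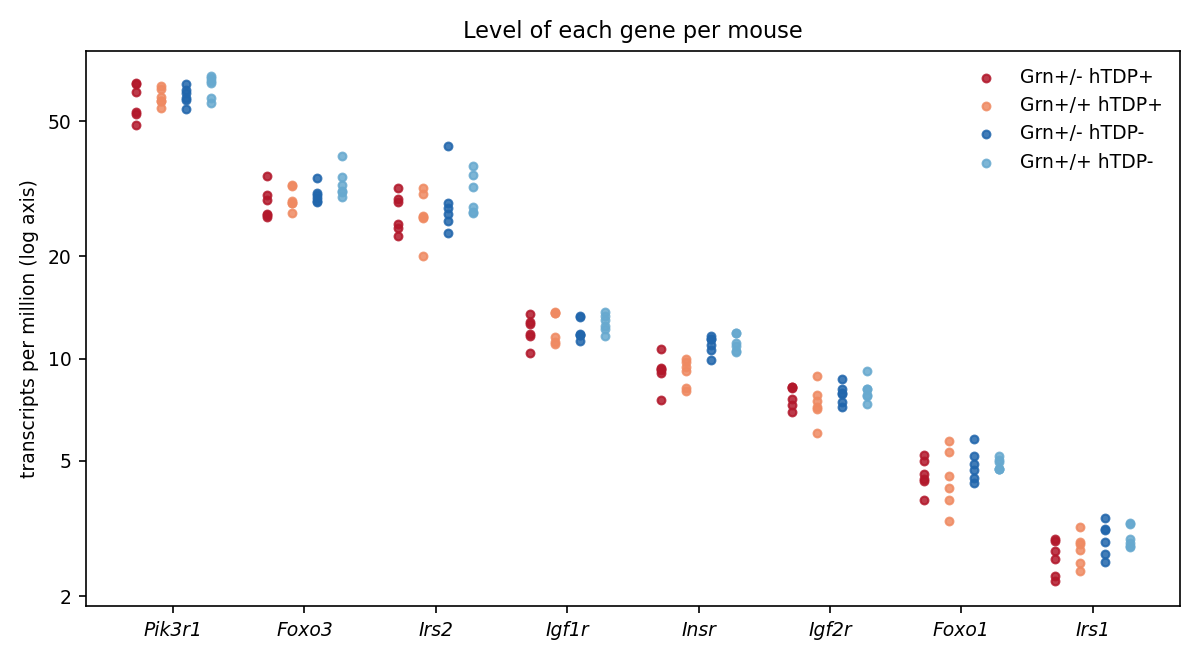
Level of the 8 genes in TPM on a log axis, with 1 point per mouse and the 4 genotypes side by side in each column. Pik3r1 lies highest and Irs1 lowest, and the hTDP+ points of Insr, the gene chosen for it, lie mostly below its hTDP- points.

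The insulin receptor gene Insr (ENSMUSG00000005534, chromosome 8, 3122061 to 3279617, minus strand) encodes the receptor for insulin itself. Its CPM in Grn+/-:hTDP+ mice were 38.6 at the lowest, 45.3 at the median and 49.7 at the highest, and in Grn+/+:hTDP+ mice 40.2, 44.6 and 49.1. In Grn+/-:hTDP- mice they were 49.7, 52.3 and 56.5, and in Grn+/+:hTDP- mice 50.9, 51.5 and 56.4. Of the 12 hTDP+ libraries 11 were below every hTDP- library, and the remaining one exceeded the lowest hTDP- library alone; within the Grn+/+ background the groups of 6 did not overlap, as for 92 of the 18239 genes tested (0.504%). With all 12 against 12 libraries, where Insr overlapped, 6 genes had no overlap (0.0329%). The mean level of hTDP+ mice was 0.851 times that of hTDP- mice, and the fitted log2 difference was −0.23 (SE 0.040). Fewer cells that carry Insr and less Insr RNA per cell cannot be told apart in bulk tissue.

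**Figure D2:**
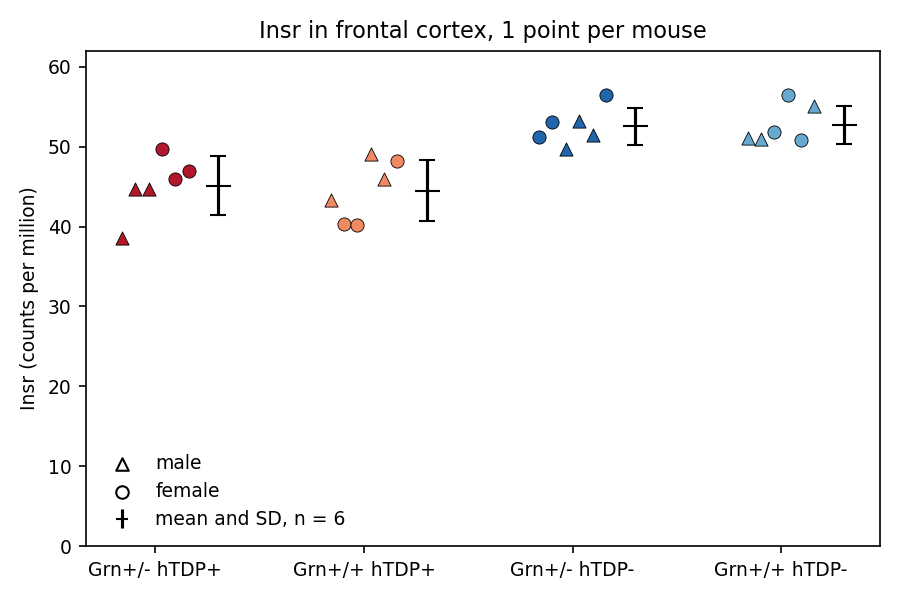
Insr in CPM for each mouse by genotype, with triangles for males, circles for females and bars for the mean and SD of 6 mice. The hTDP+ mice lie between 38.6 and 49.7 CPM and the hTDP- mice between 49.7 and 56.5 CPM, on either Grn background.

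The lower level of Insr was seen on each background, in each sex and at each shared age. These are parts of the values by which Insr was chosen, so they describe the choice and are no further support for it. The log2 difference between hTDP+ and hTDP- mice was −0.22 in Grn+/- mice and −0.24 in Grn+/+ mice. Male means were 44.4 ± 3.45 CPM in hTDP+ and 51.9 ± 1.92 CPM in hTDP- mice, and female means 45.2 ± 4.03 CPM in hTDP+ and 53.3 ± 2.55 CPM in hTDP- mice (SD, n = 6 each). At 9.44 months hTDP+ mice averaged 47.2 ± 1.37 CPM (n = 5) and hTDP- mice 53.0 ± 3.26 CPM (n = 4). At 10.07 months hTDP+ mice averaged 43.1 ± 3.75 CPM (n = 7) and hTDP- mice 51.4 ± 0.631 CPM (n = 2). All hTDP+ mice share these ages, while 6 hTDP- mice had other ages and averaged 52.8 ± 2.06 CPM. These were all Grn+/-:hTDP- mice except replicate 3, and replicate 1 of Grn+/+:hTDP-. Transgene and age can therefore not be fully told apart in Grn+/- mice. With age as a linear term the log2 difference was −0.22, with 1 level per age −0.18, and without the library of few transcripts it was also −0.22.

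Grn dose was not accompanied by a change in Insr that passed the test. Grn+/- mice had 38.6, 49.7 and 56.5 CPM as lowest, median and highest, and Grn+/+ mice 40.2, 49.98 and 56.4 CPM. The ranges overlapped almost wholly, with a log2 difference of 0.0062 (95% interval −0.076 to 0.088; edgeR quasi-likelihood test, Benjamini-Hochberg adjusted p = 0.993). The transgene difference in Grn+/- mice minus that in Grn+/+ mice was 0.023 on the log2 scale (−0.14 to 0.19, adjusted p = 0.9999). With 1 level per age in the fit it was 0.10 (edgeR adjusted p = 0.99997). Most Grn+/-:hTDP- mice had ages of their own, so Grn dose and the interaction cannot be fully told apart from age. Males and females differed by −0.032 (male minus female, −0.11 to 0.049, adjusted p = 0.925).

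Nearly all Insr reads were assigned to Insr-201, a transcript without the short exon. Insr-201 held 99.5% of Insr reads, and the 4 other transcripts summed to 0.532%. Its CPM were 36.9, 44.6 and 48.9 as lowest, median and highest in hTDP+ mice, against 48.2, 50.99 and 56.2 in hTDP- mice. Insr-203, a fragment of 672 bases that carries the exon, had 0 to 12.2 estimated reads per library and was above 0 in 18 of 24. By TPM it made up 2.10% ± 2.50 of Insr in hTDP+ mice and 3.54% ± 2.28 in hTDP- mice (SD, n = 12 each), with ranges of 0 to 8.29% in hTDP+ and 0 to 7.34% in hTDP- mice. These shares overlap broadly and rest on a few reads, and Insr-203 did not pass the filter and was not tested. Insr-203 covers 672 bases against 9355 for Insr-201, so B form reads outside it would fall to other transcripts such as Insr-201. The shares of reads and of TPM therefore give no ratio of the A and B forms. Insr-204, a retained-intron transcript, had 4 to 27 reads and no edgeR call for Grn dose (0.00565% of 53052 transcripts were called), the interaction (0%) or sex (0.0509%).

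Igf1r (ENSMUSG00000005533, chromosome 7, 67952827 to 68233668, plus strand), the closest relative of Insr and the main receptor for IGF1, did not share its pattern. Igf1r had 60.5, 71.0 and 83.8 CPM as lowest, median and highest in hTDP+ mice, against 66.5, 70.1 and 77.8 CPM in hTDP- mice. The hTDP+ range enclosed the hTDP- range, and the log2 difference was 0.013 (SE 0.047, adjusted p = 0.963). The sign differed between the shared ages: at 9.44 months Igf1r averaged 78.6 ± 3.90 CPM in hTDP+ mice (n = 5) and 72.3 ± 5.33 in hTDP- mice (n = 4), and at 10.07 months 66.7 ± 4.20 CPM in hTDP+ mice (n = 7) and 70.1 ± 0.210 in hTDP- mice (n = 2). This difference between ages was not tested.

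Set against Igf1r in the same library, Insr was lower in transgenic mice. The ratio of Insr to Igf1r in TPM was 0.760 ± 0.062 in Grn+/-:hTDP+ mice and 0.731 ± 0.033 in Grn+/+:hTDP+ mice, against 0.905 ± 0.069 in Grn+/-:hTDP- and 0.875 ± 0.031 in Grn+/+:hTDP- mice (SD, n = 6 each). The ratio ran from 0.672 to 0.844 with the transgene and from 0.797 to 0.978 without it. Since Igf1r hardly differed with the transgene, the ratio restates the difference by which Insr was chosen, and it was not tested. After group and sex means were removed, the 2 genes rose and fell together over the 24 libraries (Pearson r = 0.86 of log2 CPM), although their r over all libraries was 0.48. These correlations share depth and library composition and carry no test. Age was not removed, and in hTDP+ mice both genes averaged lower at 10.07 than at 9.44 months.

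**Figure D3:**
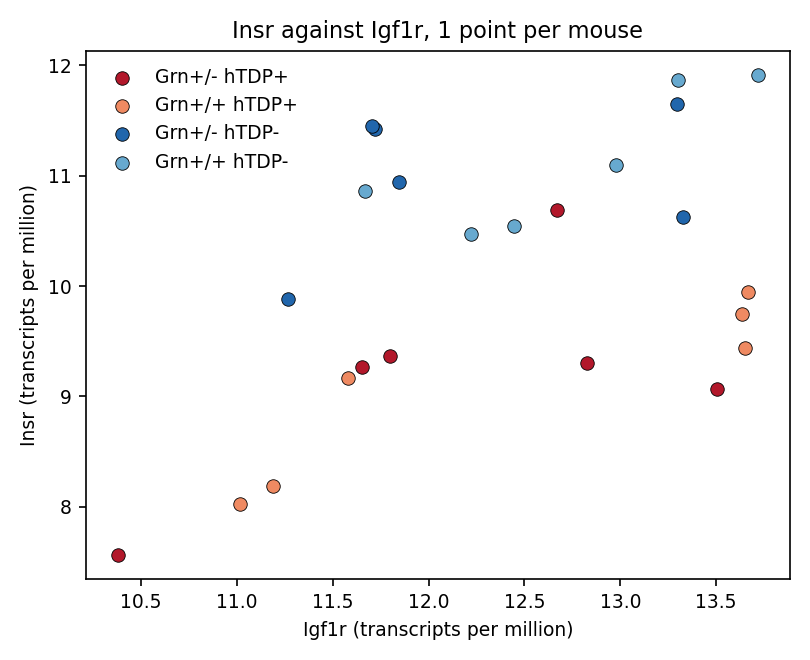
Insr against Igf1r in TPM, with 1 point per mouse coloured by genotype. At a like level of Igf1r most hTDP+ mice lie below the hTDP- mice, with ratios of 0.672 to 0.844 against 0.797 to 0.978. Insr was chosen for its lower level in hTDP+ mice.

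Igf2r (ENSMUSG00000023830, chromosome 17, 12682406 to 12769664, minus strand) has no kinase and carries IGF2 and mannose 6-phosphate tagged enzymes to lysosomes. Igf2r had 29.0, 36.1 and 41.6 CPM in hTDP+ mice and 33.6, 37.7 and 43.0 CPM in hTDP- mice as lowest, median and highest. The ranges overlapped, with a log2 difference of −0.049 (SE 0.048, adjusted p = 0.833). Among the 3 receptors only Insr, the one chosen for it, was far from 0 under the transgene; the Grn differences were −0.034 for Igf1r and 0.038 for Igf2r (adjusted p = 0.953 and 0.947).

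The docking proteins had fitted differences below 0 under the transgene, and neither was called. Irs1 (ENSMUSG00000055980, chromosome 1, 82233101 to 82291416, minus strand) had 11.4, 13.3 and 15.3 CPM in hTDP+ mice, against 12.5, 14.1 and 16.6 CPM in hTDP- mice. Of the hTDP+ libraries 4 lay below all hTDP- libraries, and 4 hTDP- libraries above all hTDP+ ones. The log2 difference of Irs1 was −0.13 (95% interval −0.24 to −0.017, unadjusted p = 0.0258, edgeR adjusted p = 0.599). It was −0.11 without the library of few transcripts, and −0.042 with 1 level per age in the fit.

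Irs2 (ENSMUSG00000038894, chromosome 8, 10984681 to 11008458, minus strand) had a wider error, and its difference was smaller without 1 library. It had 67.6, 88.0 and 106 CPM in hTDP+ mice and 79.2, 92.4 and 141 CPM in hTDP- mice as lowest, median and highest. Its log2 difference was −0.13 (−0.31 to 0.049, adjusted p = 0.723). Without Grn+/-:hTDP- replicate 4, the library at 141 CPM, it was −0.069 (edgeR adjusted p = 0.873). Irs2 varied most of the 8 genes over all libraries, with an SD of 16.3% of its mean against 5.47% for Pik3r1.

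Pik3r1 (ENSMUSG00000041417, chromosome 13, 101680563 to 101768217, minus strand) gives rise to a long regulatory subunit, p85α, and to shorter ones from inner start sites, which lack the first domains. The first 60 coding bases of its 2 main transcripts are shown because they tell these forms apart, with capitals for bases that the long form does not share.
Long form, 724 codons: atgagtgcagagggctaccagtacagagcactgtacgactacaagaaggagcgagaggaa
Short form, 454 codons: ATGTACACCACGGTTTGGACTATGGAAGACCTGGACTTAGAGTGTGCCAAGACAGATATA
The coding parts begin at positions 101757659 and 101692288 of chromosome 13.

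Pik3r1 as a gene was the steadiest of the 8. It had 137, 155 and 173 CPM as lowest, median and highest in hTDP+ mice and 145, 160 and 173 CPM in hTDP- mice, which overlap almost wholly. The log2 difference was −0.044 (SE 0.031, adjusted p = 0.744). The long transcript took 80.7% ± 2.53 of the gene's reads in hTDP+ mice and 79.8% ± 2.15 in hTDP- mice, and the short one 18.7% ± 2.44 in hTDP+ and 19.6% ± 2.13 in hTDP- mice (SD, n = 12 each). By genotype the short form had 19.1% ± 2.99 in Grn+/-:hTDP+, 18.3% ± 1.94 in Grn+/+:hTDP+, 18.4% ± 2.03 in Grn+/-:hTDP- and 20.9% ± 1.502 in Grn+/+:hTDP- mice (n = 6 each). The long transcript has 7113 bases and the short one 2923. By TPM, which divides by length, they made up 55.8% and 34.8% of Pik3r1 over all libraries. The level of the short transcript differed by −0.12 on the log2 scale with the transgene (−0.28 to 0.050, adjusted p = 0.978), and its interaction was 0.27 (−0.067 to 0.60, adjusted p = 1). Among the transcripts tested, 0.0377% were called for the transgene, and for the interaction 0.

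The FOXO factors, which AKT restrains, lay slightly lower in transgenic mice with no call. Foxo1 (ENSMUSG00000044167, chromosome 3, 52268336 to 52353221, plus strand) had 15.5, 20.7 and 26.0 CPM in hTDP+ mice and 19.8, 22.3 and 26.9 CPM in hTDP- mice. Its log2 difference was −0.097 (−0.23 to 0.038, adjusted p = 0.728). Foxo1 ran from 15.5 to 26.0 CPM in Grn+/+:hTDP+ mice, its widest spread, against 21.4 to 23.4 CPM in Grn+/+:hTDP- mice, its narrowest.

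Foxo3 (ENSMUSG00000048756, chromosome 10, 42181841 to 42276755, minus strand) had 92.6, 103 and 119 CPM in hTDP+ mice, against 102, 107 and 137 CPM in hTDP- mice. Of the hTDP+ libraries 5 were below all hTDP- libraries, and 2 hTDP- libraries were above all hTDP+ ones. The log2 difference of Foxo3 was −0.084 (−0.18 to 0.013, adjusted p = 0.675). For Grn dose the FOXO factors had opposite signs, with 0.042 for Foxo1 and −0.055 for Foxo3 (adjusted p = 0.960 and 0.938).

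For the transgene 0 of the 7 genes other than Insr were called by edgeR, DESeq2 or limma-voom, where 20 of 18239 genes, or 0.110%, were called by edgeR (adjusted p under 0.05). Irs1 was the only one of the 7 with an unadjusted p under 0.05, a level that 7.86% of all genes reached. Of the 7 genes 6 were below 0, as were 48.4% of all genes, with a median log2 difference of −0.084 against 0.0031 over all genes. Most genes with messages of like length were below 0 too: between 77.0% and 87.1% of them for each of the 7, with medians of −0.065 to −0.034. The 95% interval reached down to −0.085 for Igf1r, −0.11 for Pik3r1, −0.15 for Igf2r and −0.18 for Foxo3. The intervals of Foxo1, Irs1 and Irs2 reached to −0.23, −0.24 and −0.31. No test compared these genes with Insr.

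For Grn dose 0 of the 8 genes were called by any of the 3 tools, against 4 of 18239 genes (0.0219%) by edgeR, and 0 of the 8 had an unadjusted p under 0.05. For the interaction 0 of the 8 were called by any of the tools, against 0 genes (0%) by edgeR, 434 genes at an unadjusted p under 0.05, and 7 genes by DESeq2. Between the sexes 0 of the 8 were called, against 13 genes (0.0713%). Foxo1 alone had an unadjusted p under 0.05 there: males had 18.2, 22.8 and 26.9 CPM and females 15.5, 20.8 and 24.4 CPM as lowest, median and highest. Its log2 difference was 0.15 (male minus female, unadjusted p = 0.0357, edgeR adjusted p = 0.820), with ranges that overlapped.

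**Figure D4:**
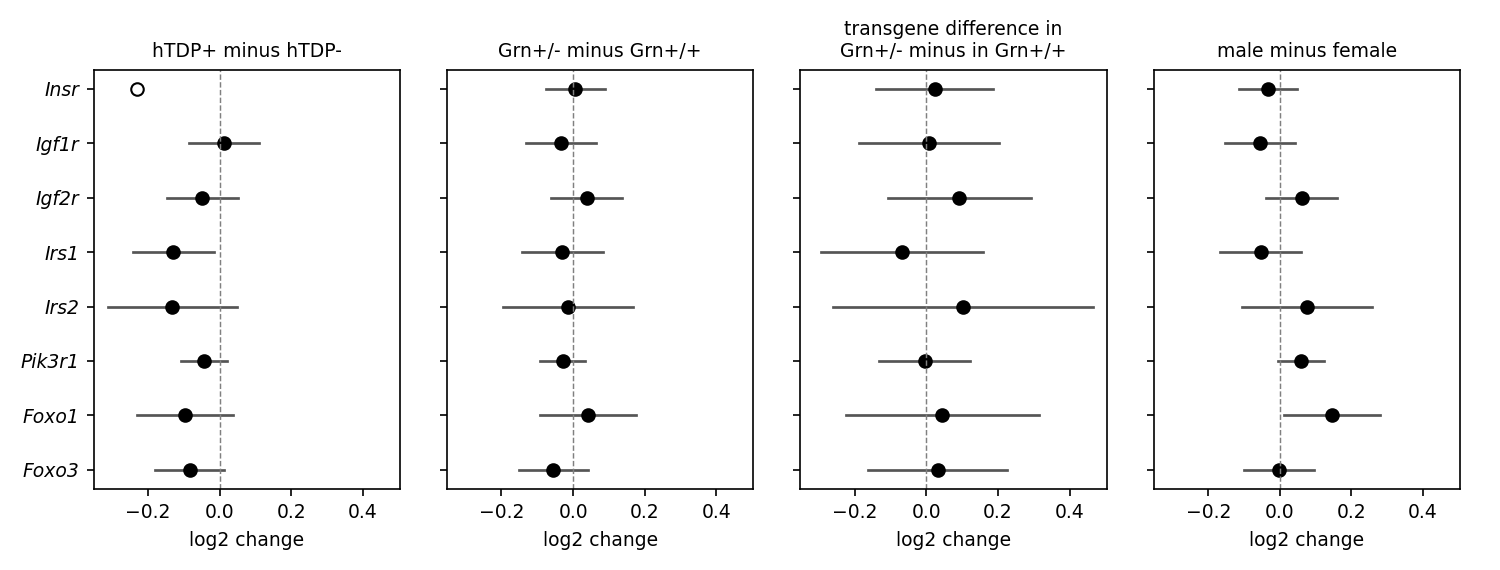
Fitted log2 differences of the 8 genes with 95% intervals from edgeR's quasi-likelihood fit, in 4 panels for the transgene, Grn dose, their interaction and sex. The open point marks Insr under the transgene at −0.23, which was chosen for that difference and is drawn with no interval; of the intervals drawn, those of Irs1 under the transgene and Foxo1 between the sexes leave out 0.

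The rest of the pathway was described through 13 lists of 155 genes, from ligands to FOXO targets, of which 147 were tested. By edgeR 0 of the 147 were called for the transgene, Grn dose, the interaction or sex, and 0 by DESeq2 or limma-voom. At an unadjusted p under 0.05 there were 11 for the transgene, 12 for Grn dose, 3 for the interaction and 8 for sex, or 7.48%, 8.16%, 2.04% and 5.44% of them. Of all genes, 7.86%, 4.93%, 2.38% and 5.99% reached that level. Under the transgene 90 of 147 were below 0, or 61.2%, with a median of −0.0083. Of all genes 48.4% were below 0, and of the 9813 genes above 10 CPM 53.3%, with a median of −0.0045. The counts by list given below stand against these same shares. Leaving out Grn+/-:hTDP+ replicate 2 gave 1 transgene call, Phlpp2, an AKT phosphatase that was at −0.13 in the full fit.

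Among the ligands, IGF but not insulin transcripts were detected. Ins1 and Ins2, the insulin genes of the mouse, had 0 reads in every library, and a count of 0 allows up to 0.0297 to 0.0488 CPM, depending on depth. Igf2 averaged 31.6 ± 14.1 CPM in hTDP+ mice and 26.0 ± 12.7 CPM in hTDP- mice (SD, n = 12 each), a log2 difference of 0.28 with an SE as large. Igf1 averaged 8.32 ± 1.02 CPM in hTDP+ and 8.70 ± 0.839 CPM in hTDP- mice. Neither was called (edgeR adjusted p = 0.834 and 0.837). Of the IGF-binding proteins 2 of 6 tested were below 0 under the transgene, with Igfbp4 at 0.050 and Igfbp5 at −0.063. The related receptors held Lrp1 at −0.065 and Met at −0.0054.

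Among adaptors beyond the IRS genes, 9 of 16 tested were below 0 under the transgene, with Grb2, which links receptors to RAS, at 0.048 and Crk at −0.040. Receptor inhibitors were below 0 in 9 of 15, with the phosphatase Ptprs at −0.056 and the ubiquitin ligase Nedd4 at −0.034. Of the genes for receptor processing and ligand breakdown 4 of 7 were below 0. Pcsk2, a prohormone convertase, averaged 512 ± 41.0 CPM in hTDP+ mice and 545 ± 32.0 CPM in hTDP- mice (log2 −0.091, unadjusted p = 0.0414, edgeR adjusted p = 0.627), and Cpe, a carboxypeptidase of the same secretory granules, was at 0.032.

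Of the PI3K subunits beyond Pik3r1, 9 of 10 were below 0 under the transgene, at a median of −0.034. Pik3r2 averaged 193 ± 9.39 CPM in hTDP+ mice and 195 ± 6.24 CPM in hTDP- mice, and the catalytic subunit Pik3ca 64.2 ± 3.94 CPM in hTDP+ and 66.9 ± 5.21 CPM in hTDP- mice (SD, n = 12 each). For Grn dose Pik3ca was at −0.091 (unadjusted p = 0.0208, edgeR adjusted p = 0.926). Phosphatases that act on PI3K lipid products or on AKT were below 0 in 6 of 8, with Inpp4a at −0.052.

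Further down, the AKT module was below 0 in 8 of 14 under the transgene, with Gsk3a at −0.016 and Gsk3b at −0.040, and the RAS and ERK arm in 10 of 14, with Map2k1 at −0.0030. The mTOR complexes were below 0 in 12 of 18 and held 4 genes with an unadjusted p under 0.05. Mtor itself averaged 130 ± 7.40 CPM in hTDP+ mice and 138 ± 7.23 CPM in hTDP- mice (log2 −0.084, edgeR adjusted p = 0.570), and the ribosomal protein Rps6 206 ± 12.5 CPM in hTDP+ and 196 ± 8.85 CPM in hTDP- mice (0.073, adjusted p = 0.592). Other FOXO factors and FOXO targets were below 0 in 11 of 22, with Gabarapl1 at 0.024 and Pink1 at 0.037. Of 12 splicing factors reported to act on the short Insr exon 7 were below 0, with Celf2 at −0.035 and Rbfox2 at −0.059.

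**Figure D5:**
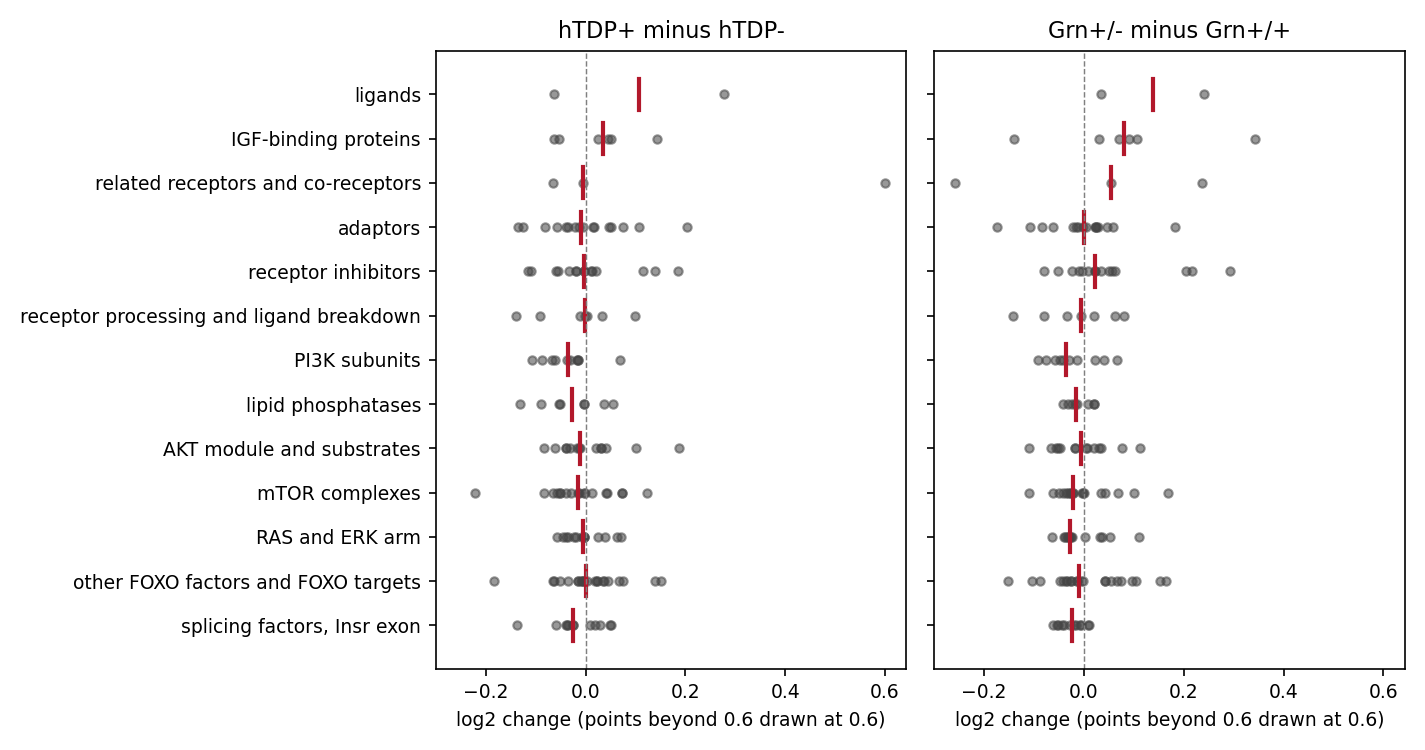
Fitted log2 differences of the 147 tested pathway genes by list, for hTDP+ minus hTDP- at the left and Grn+/- minus Grn+/+ at the right, with 1 point per gene and a red bar at the list's median. Under the transgene the medians of lists with more than 3 tested genes lie between −0.034 and 0.035, and the point drawn at 0.6 is Insrr.

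Over the 24 libraries, the 5 genes whose log2 CPM followed Insr most closely, among 9812 genes above 10 CPM, were Herc2, Huwe1, Bsn, Arhgef12 and Zzef1. Herc2 and Huwe1 encode large ubiquitin ligases and Bsn a presynaptic scaffold. Their Pearson r with Insr was 0.82 for Herc2 and for Huwe1 and 0.81 for the others. They share the transgene difference by which Insr was chosen, so their own transgene differences follow from the choice and are a description: −0.16 for Herc2, −0.11 for Huwe1, −0.28 for Bsn, −0.12 for Arhgef12 and −0.11 for Zzef1. All 5 have long messages, of 10752 to 15938 bases, where the median over the genes compared was 3337 bases and Insr-201 has 9355. Of the other 7 pathway members Irs1 had the highest r over all libraries (0.58, rank 230) and Foxo3 the lowest (0.28). After group and sex means were removed the order changed, with r of 0.86 for Igf1r, 0.67 for Igf2r and 0.39 for Irs1, against 0.54 to 0.82 for the 5 genes.

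Most long messages had fitted differences slightly below 0 under the transgene, and also for Grn dose and sex. The 267 genes above 10 CPM whose main transcript was within 10% of the length of Insr-201 had a median log2 difference of −0.056 between hTDP+ and hTDP- mice, and 84.3% of them were below 0, against 53.3% of all 9813 genes above 10 CPM. For Grn dose 73.4% of the same genes were below 0 (median −0.026), against 53.7% of the 9813 genes. Between the sexes the shares were 67.8% (median −0.024, male minus female) and 49.5%, and for the interaction 31.1% (median 0.029) and 44.4%. The median deviation of the 267 genes from their mean over all libraries was taken in log2 CPM. It ran from −0.19 to 0.045 in hTDP+ and from −0.024 to 0.10 in hTDP- libraries, which overlap. Subtracting the transgene median leaves −0.18 for Insr. The part of message length in the Insr difference was not tested further.

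TDP-43 is known to bind UG repeats in RNA, so the motif TGTGTG was counted, with overlapping matches and on the RNA's strand, in the main transcript of each gene. Insr-201 had 12 matches in 9355 bases, and 23.1% of transcripts within 10% of its length had as many. The long Pik3r1 transcript had 13 matches (10.6% of transcripts of like length had as many) and that of Igf1r 20 (16.1%), while that of Irs2 had 3 (70.7%). Of transcripts as long as Insr-201, 97.3% held at least 1 match. A match is a string of letters and not a binding site.

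No cell type marker was called for the transgene, and the sums of each list overlapped between the groups. All 7 oligodendrocyte markers were above 0 under it (median 0.27), and their summed CPM ran from 1103 to 3800 in hTDP+ mice and from 1091 to 5048 in hTDP- mice. All 8 mural and meningeal markers were above 0 (median 0.16; sums of 131 to 192 CPM in hTDP+ and 117 to 170 in hTDP- mice), and all 5 excitatory neuron markers were below 0 (median −0.081; sums of 4968 to 6259 CPM in hTDP+ and 5291 to 6156 in hTDP- mice). Choroid plexus and ependymal markers were above 0 in 5 of 6 tested (median 0.53; sums of 5.50 to 27.1 CPM in hTDP+ and 5.10 to 17.2 in hTDP- mice). Above 0 were also 5 of 6 astrocyte markers (median 0.018) and 5 of 6 endothelial ones (median 0.051), whereas 4 of 5 microglial and 4 of 6 inhibitory neuron markers were below 0 (medians of −0.016 and −0.032). Precursors of oligodendrocytes had 2 of 4 on each side. None of the marker genes was at 0 in all libraries, and their part in the Insr difference was not tested.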

How the data were processed

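Per the labels' protocols, RNA of perfused, frozen frontal cortex was poly-A selected. The authors made and deposited 1 Salmon table per library, which holds an estimated count and a TPM per transcript, per the file headers. STAR, SAMtools, Salmon and DESeq2 are named, without versions, in the submitters' processing notes; no label or header states the genome build. Transcript IDs were placed with GENCODE M21 (GRCm38): 138032 of 149443 mouse transcripts (92.4%), leaving out 1.17% to 1.66% of reads per library. All 29 transcripts of the 8 genes had the M21 length. The estimated counts of each gene's transcripts were added up and rounded to whole numbers.

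Genes were fitted in edgeR 4.0.16 (R 4.3.3) with TMM scaling, filterByExpr by group, group and sex as terms, and the quasi-likelihood test, two-sided, Benjamini-Hochberg adjusted over all 18239 genes; transcripts likewise. CPM are edgeR's. Comparisons were the mean of hTDP+ minus hTDP- groups, Grn+/- minus Grn+/+, their interaction, and male minus female. DESeq2 1.42.0, limma 3.58.1 and the settings in the closing section were alternatives. The scripts were tested on simulated data: with 200 changed genes, 91% of those changed by 1.5 on the log2 scale and 74% of those changed by 0.5 were recovered for the transgene comparison, among 18081 genes. Intervals are at 95%.

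The members and lists were chosen with earlier results of these data known. Text names the 8 members, the 2 most abundant tested genes of each list and any called, the 5 genes most like Insr above 10 CPM, and Insr transcripts with at least 2% of its reads. Some genes that this rule names are not reported here. Phlpp2, Insrr and the minor Insr transcripts were named after their values were seen.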

Additional observations from a re-analysis of the deposited data

Results flagged for a closer look

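Among 32 sets of 6 libraries (8 genes in 4 genotypes), 2 held a library far from the other 5, and chance flags about 1 in 20. Irs2 had 140.5 CPM in Grn+/-:hTDP- replicate 4, against 79.2 to 95.02 CPM in the others of that genotype. Pik3r1 had 144.9 CPM in Grn+/-:hTDP- replicate 1, against 158 to 162 CPM in the others.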

How the results depend on the processing

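DESeq2 moved the counts of called genes over 1.5 times: 60 for the transgene, 12 for Grn dose, 7 for the interaction and 24 for sex, against 20, 4, 0 and 13 with edgeR. By share of TPM rather than reads, Insr-201 held 96.0% and Insr-203 2.82% of Insr. With 1 level per age in the fit, a setting added after seeing the data, 2 genes were called for the transgene and 1 for Grn dose; 6 ages take up 5 degrees of freedom. Under it the transgene differences were −0.18 for Insr, −0.042 for Irs1, −0.050 for Foxo1 and 0.088 for Igf1r. Calls among the members stayed at 0, Insr under the transgene aside, in all 8 alternatives to the edgeR fit (7 for sex) and in all 24 fits that left out 1 library. The log2 difference of Insr under the transgene ran from −0.26 to −0.18 over the 8 alternatives and from −0.25 to −0.21 over the 24 fits. The subtraction for message length was likewise added and gave −0.18. Transcript calls for Grn dose, 3 in the full fit, were 5 without Grn+/+:hTDP- replicate 1 or Grn+/+:hTDP+ replicate 2. No paired analysis was possible because replicate numbers were given in accession order and pair no mice; the labels used here name no litters. The short Insr exon is held by Insr-203, a fragment of 672 bases with at most 12.2 estimated reads per library, which limits what the reads show of it.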

Other observations

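Insrr, the insulin receptor-related receptor, had 0.0135 to 0.787 CPM in hTDP+ mice and 0 to 0.268 CPM in hTDP- mice, a log2 difference of 1.54 (SE 0.65, unadjusted p = 0.0260, edgeR adjusted p = 0.599), with ranges that overlapped. Deptor, an mTOR inhibitor, had 26.7, 44.0 and 53.8 CPM as lowest, median and highest in hTDP+ mice and 33.9, 49.3 and 59.8 CPM in hTDP- mice (log2 −0.22, edgeR adjusted p = 0.629). Both were singled out after their values were seen. The mouse Tardbp gene averaged 101 ± 7.94 CPM in hTDP+ mice and 145 ± 3.87 CPM in hTDP- mice (SD, n = 12 each).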
